A study of Mus musculus with 18 samples.

Results

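The CXC chemokines are small secreted proteins that attract leukocytes. The 10 CXC chemokine genes described here are Cxcl1, Cxcl2, Cxcl5, Cxcl9, Cxcl10, Cxcl11, Cxcl12, Cxcl13, Cxcl14 and Cxcl16, and they were chosen by gene symbol. All 10 were found in each of the 3 gene tables, which list 21018 genes in at least 1 table. RNA came from whole perfused livers of male C57/B6J mice at an age of 12 weeks. 3 mice had received 20 µg/kg IL-1β intraperitoneally and 3 mice saline, and livers were taken 4 h later. RNA of each mouse was split between 3 library kits. TruSeq, a poly(A) kit that keeps strand, received 200 ng, V4, a poly(A) kit without strand, received 0.8 to 1.3 ng, and Pico, a total RNA kit that keeps strand, received 1.7 to 2.6 ng. Mice given IL-1β are called I9579, I9582 and I9583, and mice given saline U9574, U9575 and U9576. Wherever 3 values of a treatment are given below they follow this order of mice. Counts are whole reads per gene, sense reads for Pico and TruSeq and reads of both strands for V4. A TruSeq library held 12348864 to 12858237 counts, a V4 library 12013453 to 12352473 and a Pico library 4024632 to 4134070. TruSeq differed from Pico and V4 also in read length and sequencer, and the kits may differ in time. These cannot be told apart from the kit, and IL-1β was compared with saline inside each kit.

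IL-1β signals through its receptor and MyD88 to NF-κB, which binds in the promoters of several chemokine genes, while RNA-binding proteins such as tristetraprolin destabilise many chemokine mRNAs. Chemokines with the ELR motif (Cxcl1, Cxcl2, Cxcl5) bind Cxcr2 and attract neutrophils. Cxcl9, Cxcl10 and Cxcl11 lack it, are best known as interferon-inducible ligands of Cxcr3, and attract activated T and NK cells. Cxcl12 is made by stromal and sinusoidal cells and retains Cxcr4-bearing cells, Cxcl13 attracts B cells through Cxcr5, and Cxcl16 is a membrane-bound ligand of Cxcr6.

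In mm9, the build of the deposited tables, 7 of the members lie on chromosome 5 and the other 3 on chromosomes 6, 11 and 13. Cxcl5 (ENSMUSG00000029371, 91188325 to 91190651), Cxcl1 (ENSMUSG00000029380, 91320267 to 91322141) and Cxcl2 (ENSMUSG00000058427, 91332897 to 91334935) are on the plus strand of chromosome 5 within 146.6 kb. Cxcl9 (ENSMUSG00000029417, 92750357 to 92757105), Cxcl10 (ENSMUSG00000034855, 92775664 to 92777915) and Cxcl11 (ENSMUSG00000060183, 92788570 to 92794511) are on its minus strand within 44.2 kb. Cxcl13 (ENSMUSG00000023078) spans 96385945 to 96390086 on the plus strand of chromosome 5, and Cxcl12 (ENSMUSG00000061353) spans 117118553 to 117131385 on the plus strand of chromosome 6. Cxcl16 (ENSMUSG00000018920) spans 70267485 to 70273486 on the minus strand of chromosome 11, and Cxcl14 (ENSMUSG00000021508) spans 56390008 to 56397912 on the minus strand of chromosome 13. The annotation calls Cxcl11 a processed transcript and the other 9 protein coding. C57BL/6 mice are known to carry a frameshift in Cxcl11.

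RefSeq promoter entries of another build, GRCm38.p6, matched 7 of the 10 members. Cxcl5, Cxcl11 and Cxcl16 had none. The 250 bases before the start are shown, 5′ to 3′ on the strand of the gene, for 5 members: the neighbours Cxcl1 and Cxcl2, the neighbours Cxcl9 and Cxcl10, and Cxcl12, which moved the other way from Cxcl9 in the counts below. Capitals mark matches, on either strand, to the NF-κB-like letters, GGGA and TTCC with 2 free bases between them, the interferon-response-like letters, GAAA and GAAA with 2 free bases between them, or the TATA-like letters TATAAA.
Cxcl1 (chr5:90890995-90891244, plus): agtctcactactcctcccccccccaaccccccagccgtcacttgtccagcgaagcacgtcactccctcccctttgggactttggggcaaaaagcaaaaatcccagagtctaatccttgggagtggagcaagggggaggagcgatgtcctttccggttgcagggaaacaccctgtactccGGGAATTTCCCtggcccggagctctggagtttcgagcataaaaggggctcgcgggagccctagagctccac
Cxcl2 (chr5:90903649-90903898, plus): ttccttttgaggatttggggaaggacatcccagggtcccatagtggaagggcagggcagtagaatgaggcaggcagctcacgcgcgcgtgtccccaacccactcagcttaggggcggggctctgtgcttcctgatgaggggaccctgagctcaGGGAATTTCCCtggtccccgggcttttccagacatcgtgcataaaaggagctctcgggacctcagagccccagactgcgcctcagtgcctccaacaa
Cxcl9 (chr5:92328080-92328329, minus): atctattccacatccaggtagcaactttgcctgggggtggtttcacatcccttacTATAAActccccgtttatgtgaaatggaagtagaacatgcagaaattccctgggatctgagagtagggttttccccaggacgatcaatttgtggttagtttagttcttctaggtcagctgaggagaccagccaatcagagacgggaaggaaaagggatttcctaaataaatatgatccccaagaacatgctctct
Cxcl10 (chr5:92348890-92349139, minus): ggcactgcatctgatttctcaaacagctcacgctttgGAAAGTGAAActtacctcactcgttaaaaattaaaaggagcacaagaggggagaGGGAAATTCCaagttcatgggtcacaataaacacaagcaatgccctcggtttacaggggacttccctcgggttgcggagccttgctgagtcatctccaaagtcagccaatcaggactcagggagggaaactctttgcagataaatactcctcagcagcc
Cxcl12 (chr6:117168285-117168534, plus): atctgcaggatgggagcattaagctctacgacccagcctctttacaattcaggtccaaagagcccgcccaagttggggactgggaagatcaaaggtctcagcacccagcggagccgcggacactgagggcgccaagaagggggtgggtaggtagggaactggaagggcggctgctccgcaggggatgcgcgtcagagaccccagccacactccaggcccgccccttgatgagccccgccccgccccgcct

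Of all 32851 promoter entries, 1.21% held the NF-κB-like letters in the same window, 2.98% the interferon-response-like letters and 12.4% TATAAA. Cxcl1 and Cxcl2 had the same run of letters, which matches the NF-κB-like letters on both strands, with its first base 71 bases before the start in Cxcl1 and 97 in Cxcl2. Cxcl10 had an NF-κB-like match 159 bases and an interferon-response-like match 213 bases before the start. Cxcl9 held TATAAA 195 bases before the start and neither of the others, and the window of Cxcl12 held none of the 3. Of the members not shown, Cxcl13 held TATAAA and Cxcl14 the interferon-response-like letters. A match is a run of letters and no evidence of binding, and the lack of one concerns only these letters in this window.

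After IL-1β, Cxcl9 and Cxcl5 rose and Cxcl12 fell in all 3 kits. Cxcl11 fell in Pico and TruSeq, and Cxcl16 rose in TruSeq. Cxcl1, Cxcl2, Cxcl10, Cxcl13 and Cxcl14 did not pass the test in any kit. The test was limma-voom on the counts of each kit with library totals, with Benjamini-Hochberg adjustment over all genes of the table, and a gene was called at an adjusted p of at most 0.05. In Pico, 2 members were called higher and 2 lower, against 6.78% and 10.8% of all genes. In V4, 2 were called higher and 1 lower, against 3.6% and 7.41% of all genes, and in TruSeq 3 were called higher and 2 lower, against 12.3% and 21.8%. In Pico, V4 and TruSeq the median log2 fold change of the members was 0.51, 0.86 and 0.31, against -0.12, -0.22 and -0.17 over all genes tested. With Cxcl5 at the lower bound given below and Cxcl2 left out as too low in Pico and V4, the members' median was 0.46 in Pico and 0.66 in V4. TMM scaling moved the median of all genes up by 0.16 in TruSeq, 0.17 in V4 and 0.13 in Pico, and the share of called genes that were higher from 36.0% to 50.9%, from 32.7% to 49.7% and from 38.6% to 52.9%, while the numbers of members called were the same. The tests measure the spread between the 3 mice of a treatment, and the 3 kits share the RNA of these mice.

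**Figure D1:**
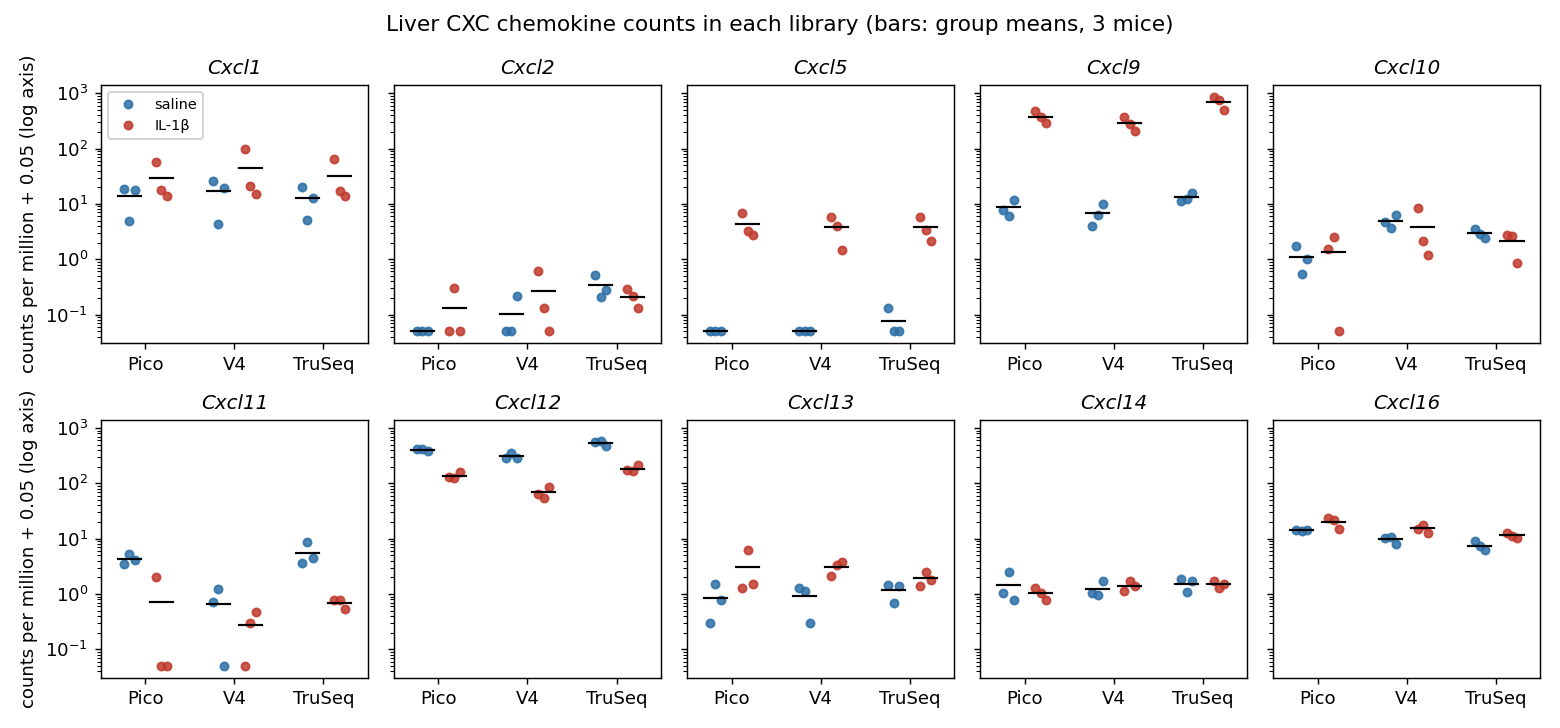
CPM (counts scaled to the library total) of the 10 CXC chemokine genes on a log axis (0.05 added), 1 point per library, in saline (blue) and IL-1β (red) livers for each kit, with the group mean of 3 mice as a bar. The IL-1β points of Cxcl9 and Cxcl5 lie above the saline points in each kit and those of Cxcl12 below, while those of Cxcl1, Cxcl10 and Cxcl14 overlap.

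Among the ELR chemokines, Cxcl5 went from no more than 1 count in a saline library to counts in every IL-1β library. It had 27, 13 and 11 counts in the Pico libraries of the IL-1β mice and 0 in all 3 saline libraries. In V4 it had 70, 48 and 17 counts against 0 in the 3 saline libraries. In TruSeq it had 71, 41 and 26 counts after IL-1β against 1, 0 and 0 after saline. The groups did not overlap in any kit, and the adjusted p from limma-voom was 0.000275 in TruSeq, 0.000516 in V4 and 4.58e-05 in Pico. With a floor of 3 counts per saline library, Cxcl5 was at least 5.77-fold higher in Pico and at least 15.0-fold higher in V4. In TruSeq the ratio of summed counts, 138 to 1 and scaled to the totals, was 142 with an exact 95% counting interval of 25.1 to 5660, which covers counting error only.

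Cxcl1 did not pass the test in any kit, and its level differed widely between mice of the same treatment. In Pico it had 229, 72 and 57 counts after IL-1β and 77, 20 and 73 after saline. In V4 it had 1197, 249 and 185 against 315, 52 and 244 counts. In TruSeq it had 800, 214 and 175 against 257, 65 and 163 counts. Mouse I9579 was the highest IL-1β mouse in each kit and U9575 the lowest saline mouse, while I9582 and I9583 lay within the range of the saline mice in each kit. In Pico, V4 and TruSeq its log2 fold change was 1.04 ± 0.52 (SE), 1.27 ± 0.76 and 1.2 ± 0.61, and the adjusted p was 0.198, 0.349 and 0.171 from limma-voom. Without I9579 it was 0.43, 0.44 and 0.52, and without U9575 it was 0.41, 0.47 and 0.64. In Pico alone, edgeR's quasi-likelihood test called Cxcl1 higher (log2 1.23, adjusted p = 9.93e-06), while under its other alternatives the adjusted p in Pico was 0.125 to 0.652.

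Cxcl2 was at the limit of detection. Its counts were 0, 1 and 0 after IL-1β and 0 in all saline libraries in Pico, 7, 1 and 0 against 0, 0 and 2 in V4, and 3, 2 and 1 against 6, 2 and 3 in TruSeq. A difference was not detectable at this depth in any kit. Cxcl1 and Cxcl2, whose genes lie 10.8 kb apart and whose promoter windows above share a run of letters, were at very different levels in the same livers. In the saline livers Cxcl1 had 13.3 ± 7.99 (SD, n = 3) CPM per kilobase of exons in TruSeq (CPM are counts scaled to the library total), and Cxcl2 had 0.157 ± 0.0906.

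Of the interferon-type ligands, Cxcl9 gained more counts than any other of the 10 members in each kit. In Pico it had 1928, 1472 and 1150 counts after IL-1β and 32, 25 and 49 after saline. In V4 it had 4505, 3423 and 2509 against 48, 76 and 120 counts. In TruSeq it had 10807, 9327 and 6274 against 144, 157 and 201 counts. Every IL-1β library lay above every saline library of its kit. The log2 fold change was 5.73 ± 0.23 (SE) in TruSeq, 5.47 ± 0.41 in V4 and 5.45 ± 0.38 in Pico, or 53.2-, 44.3- and 43.8-fold, with adjusted p of 5.51e-07, 2.37e-05 and 6.33e-08 from limma-voom. By fitted log2 fold change it ranked 20 of 18108 genes from the largest rise in Pico, 42 of 18051 in V4 and 24 of 19424 in TruSeq.

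Cxcl10, whose gene starts 18.6 kb beyond Cxcl9, did not pass the test and was not higher after IL-1β in the fit of any kit. In Pico it had 6, 10 and 0 counts after IL-1β and 7, 2 and 4 after saline. In V4 the counts were 101, 25 and 14 against 57, 44 and 78, and in TruSeq 34, 32 and 10 against 44, 36 and 30. The groups overlapped in each kit. The log2 fold change was -0.65 ± 0.41 (SE) in TruSeq, -0.80 ± 0.63 in V4 and -0.41 ± 1.03 in Pico (adjusted p = 0.268, 0.502 and 0.82, limma-voom), and in Pico it was above 0 with edgeR and DESeq2. The exons of Cxcl10 share 133 bases with those of Art3 on the opposite strand, so reads of both genes can be mixed in V4. Art3 had 0, 22 and 11 counts after IL-1β and 29, 17 and 43 after saline in V4.

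Cxcl11 fell in Pico and TruSeq. In Pico it had 8, 0 and 0 counts after IL-1β and 14, 22 and 17 after saline, and 9, 9 and 6 against 46, 109 and 58 in TruSeq. The groups did not overlap in either kit, and the log2 fold change was -3.77 ± 0.84 (SE, adjusted p = 0.00458, limma-voom) in Pico and -2.95 ± 0.49 (adjusted p = 0.00132) in TruSeq. In V4 it had 0, 3 and 5 against 8, 14 and 0 counts, and the log2 fold change of -0.89 ± 1.38 was not called (adjusted p = 0.714). The fitted Pico change was -2.52 with edgeR, -2.57 with DESeq2 and -5.13 without I9579, the 1 IL-1β library with counts, and -3.09 without either of the other two. The Pico call was lost without I9582 (adjusted p = 0.106) or without I9583 (adjusted p = 0.0907). The exons of Cxcl11 share 1582 bases with the pseudogene Gm2673 on the opposite strand, which had 3 counts in 1 saline Pico library and 0 in the other 5 and was not listed in the other tables. Within 44.2 kb of chromosome 5, then, Cxcl9 rose, Cxcl10 was not called and Cxcl11 was called lower in Pico and TruSeq.

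**Figure D2:**
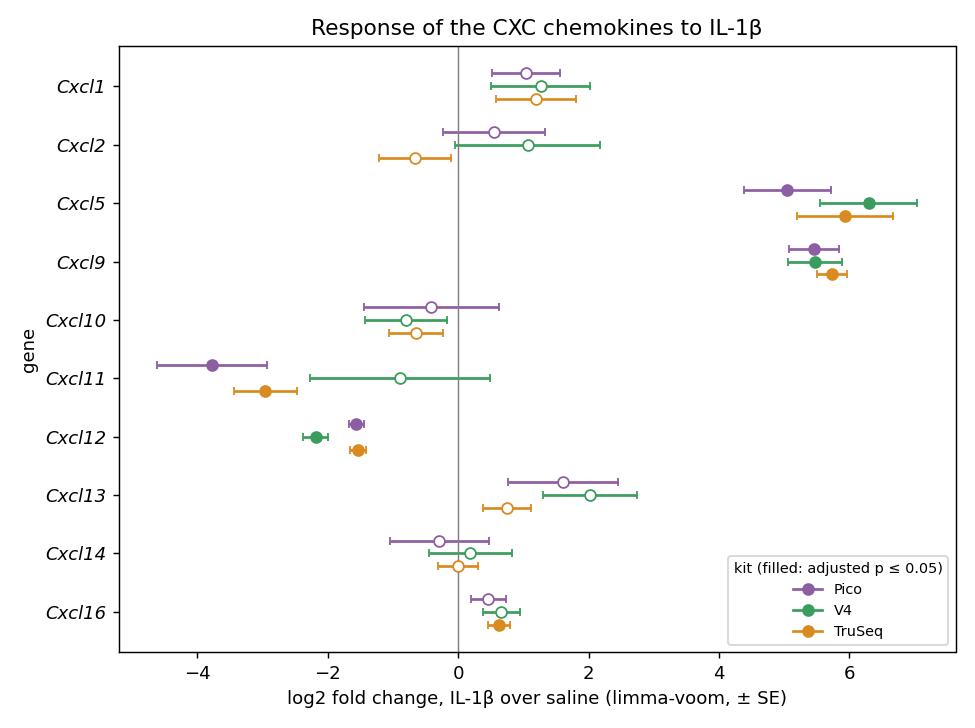
Log2 fold change of IL-1β over saline for each CXC chemokine gene and kit, from limma-voom, with bars of 1 SE, and filled points where the adjusted p was at most 0.05. Cxcl5 and Cxcl9 lie above 4 and Cxcl12 below -1 in all 3 kits, and Cxcl11 is filled in Pico and TruSeq.

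Cxcl12, the homeostatic ligand of Cxcr4, fell in all 3 kits. In Pico it had 519, 513 and 644 counts after IL-1β and 1698, 1723 and 1581 after saline. In V4 it had 783, 651 and 1055 against 3423, 4213 and 3527 counts. In TruSeq it had 2180, 2044 and 2644 against 7097, 7380 and 5971 counts. The groups were far apart in each kit, and I9583 was the highest and I9582 the lowest IL-1β mouse in each. Its log2 fold change was -1.53 ± 0.12 (SE) in TruSeq, -2.18 ± 0.19 in V4 and -1.56 ± 0.11 in Pico, a level 2.89-, 4.53- and 2.94-fold lower, and the adjusted p was 2.44e-05, 7.76e-05 and 1.12e-07 from limma-voom. In bulk liver, fewer cells of a type and less RNA per cell cannot be told apart. Of 8 sinusoidal endothelial markers, 3 were lower and 2 higher in Pico, 2 lower and 0 higher in V4, and 5 lower and 1 higher in TruSeq, and their summed level was 137 to 174 CPM after IL-1β and 215 to 241 after saline in TruSeq, 316 to 360.2 against 406 to 449.8 in Pico, and 62.4 to 78.5 against 98.4 to 140 in V4. Of 8 stellate cell markers, 5 were lower in TruSeq, 2 in V4 and 3 in Pico with none higher, and their summed level was 246 to 320.5 against 369.6 to 426 CPM in Pico, 179.8 to 210.4 against 271 to 312 in V4 and 177 to 229 against 312 to 357 in TruSeq. With TMM scaling, 5 stellate markers were lower in TruSeq, 1 in V4 and 2 in Pico, with none higher. The sinusoidal counts stayed the same except for 2 rather than 1 higher in TruSeq. None of the markers of either list was at 0 throughout a treatment, and their part in the fall of Cxcl12 was not tested.

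Cxcl16 rose in TruSeq, from 112, 93 and 79 counts after saline to 159, 136 and 128 after IL-1β, without overlap (log2 0.63 ± 0.17 SE, 1.54-fold, adjusted p = 0.0181, limma-voom). The call was lost without any of I9579, I9582, U9575 or U9576, with adjusted p of 0.0702, 0.0523, 0.0627 and 0.0683. In V4 its counts were 183, 217 and 155 against 124, 131 and 97, also without overlap but not called (log2 0.66 ± 0.28, adjusted p = 0.175). In Pico they were 95, 87 and 59 against 58, 56 and 60, which overlap (log2 0.46 ± 0.26, adjusted p = 0.271). Cxcl16 shares 552 exon bases with Zmynd15 on the opposite strand, which had 15 to 58 counts after IL-1β and 6 to 82 after saline in V4.

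Cxcl13 and Cxcl14 did not pass the test in any kit. Cxcl13 had 5, 25 and 6 counts against 1, 6 and 3 in Pico, 25, 40 and 46 against 15, 13 and 3 in V4, and 17, 30 and 22 against 18, 8 and 17 in TruSeq. In V4 every IL-1β library was above every saline library (log2 2.02 ± 0.72 SE, adjusted p = 0.102, limma-voom), and in the other kits the groups overlapped. Cxcl14, which liver epithelium expresses without stimulation, had 3 to 5 counts after IL-1β and 3 to 10 after saline in Pico, 13 to 20 against 11 to 21 in V4 and 15 to 21 against 13 to 23 in TruSeq. Its log2 fold changes of -0.28 ± 0.76, 0.19 ± 0.64 and -0.00 ± 0.31 had no common sign, and the TruSeq value was above 0 with TMM scaling.

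Levels of different genes were compared as CPM per kilobase of merged exons. The merged length takes in every annotated exon of a gene, 8176 bases for Cxcl12 and 953 for Cxcl1. Order and shares thus depend on it, and the transcript forms made in these livers were not examined. By CPM alone, Cxcl12 exceeded Cxcl1 in every IL-1β library of Pico and TruSeq. In saline livers Cxcl12 was highest in each kit, at 65.3 ± 7.43 (SD, n = 3) in TruSeq, 37.5 ± 4.46 in V4 and 49.6 ± 2.45 in Pico, and Cxcl1 was next, with no overlap between their ranges. Cxcl12 then made up 72.1% ± 7.25 of the summed level of the 10 members in TruSeq, 58.4% ± 14.3 in V4 and 66.6% ± 8.34 in Pico, and Cxcl9 made up 5.06% ± 1.37, 3.57% ± 1.56 and 3.92% ± 1.21. After IL-1β the top place went to Cxcl9, at 244 ± 64.1 in TruSeq, 98.9 ± 27.9 in V4 and 129 ± 33.1 in Pico, or 79.1% ± 4.76, 62.0% ± 10.6 and 68.5% ± 3.48 of the sum. Cxcl1 followed with 33.5 ± 29.5, 47.0 ± 48.8 and 31.0 ± 24.7, and Cxcl12 with 22.6 ± 3.07, 8.39 ± 2.10 and 16.9 ± 2.23. The ranges of Cxcl9 and Cxcl1 overlapped in V4, but Cxcl9 was above Cxcl1 within each IL-1β library there. It had 127, 97.7 and 71.6 against 103, 21.7 and 16.1 for Cxcl1. Cxcl1 and Cxcl12 overlapped in Pico and TruSeq, and their order differed between mice of a kit, so it was not separated by their spread. Cxcl16 followed Cxcl12 after IL-1β, at 3.77, 5.06 and 6.59. Cxcl5, at 2.24, 2.24 and 2.54, was next in TruSeq and Pico and came after Cxcl13 and Cxcl10 in V4, and most neighbours below Cxcl16 overlapped. The summed level of the 10 genes in Pico was 190.5 ± 58.0 after IL-1β and 75.0 ± 7.06 after saline, and it was 168 ± 77.2 against 65.3 ± 7.67 in V4, and 311 ± 88.9 against 90.9 ± 10.4 in TruSeq.

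**Figure D3:**
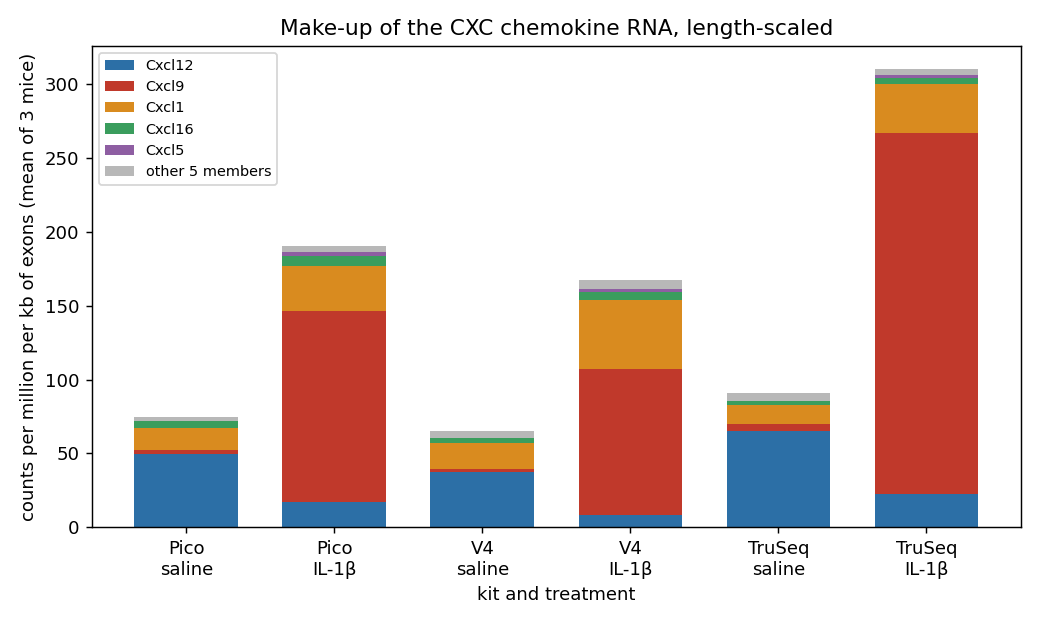
Stacked bars of the mean level over 3 mice, in CPM per kilobase of merged exons, for each kit and treatment. Cxcl12 fills most of each saline bar and Cxcl9 most of each IL-1β bar.

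The response to IL-1β was also compared between kits, by the interaction of kit and treatment in limma-voom over the 12 libraries of 2 kits. No member was called in any of the 3 pairs of kits, and 0% of all genes were called in each pair. At an unadjusted p under 0.05 there was 1 member, Cxcl12, in V4 against TruSeq and in Pico against V4, and none in Pico against TruSeq. Of all genes tested, 6.36% (1090 of 17147), 5.49% (900 of 16395) and 5.49% (945 of 17207) were under it in these pairs. With 1 of 10 members under it at most, the members were close to the share of all genes. DESeq2 called 62, 14 and 4 genes but no member. The log2 response of Cxcl12 differed by -0.65 ± 0.23 (SE) between V4 and TruSeq (adjusted p = 0.573) and by 0.62 ± 0.23 between Pico and V4 (adjusted p = 0.768), and by -0.02 ± 0.17 between Pico and TruSeq (adjusted p = 0.996). For Cxcl9 the differences were -0.28 ± 0.55 between Pico and TruSeq and -0.26 ± 0.54 between V4 and TruSeq (adjusted p = 0.972 and 0.999). Cxcl11, called in TruSeq and Pico and not in V4, had a difference of 2.07 ± 1.47 between V4 and TruSeq (adjusted p = 0.948), and that of Cxcl16 was 0.04 ± 0.33 (adjusted p = 0.999). The different calls of these genes are thus not shown to be different responses.

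Among the IL-1β mice, Cxcl1, Cxcl5 and Cxcl9 shared 1 order of mice in CPM in all 3 kits, I9579 above I9582 above I9583. Of 8960 genes that averaged 20 counts or more in each kit, 230 (2.57%) had this order in all 3 kits. In the saline mice Cxcl1 had the order U9574, U9576, U9575 in all 3 kits, as did 0.938% of those genes. Both orders were taken from the members, so these shares are a description. Cxcl5 had too few counts in Pico to be among the 8960 genes. Its order of I9582 and I9583 there rests on 13 against 11 counts. The highest mouse exceeded the lowest 4.01-, 6.41- and 4.57-fold for Cxcl1 after IL-1β in Pico, V4 and TruSeq, 2.45-, 4.08- and 2.73-fold for Cxcl5 and 1.67-, 1.78- and 1.72-fold for Cxcl9. For Cxcl12 this ratio was 1.25, 1.62 and 1.29. The kits share RNA, so agreement between them describes the mouse's RNA and is not independent of it.

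Of the receptors, Cxcr2, which binds Cxcl1, Cxcl2 and Cxcl5 on neutrophils, was the 1 of 8 that rose in all 3 kits. It had 29, 28 and 24 counts after IL-1β against 0 in all saline libraries in Pico, 9, 38 and 22 against 5, 0 and 0 in V4, and 37, 66 and 37 against 3, 3 and 1 in TruSeq. With a floor of 3 counts per library it was at least 9.17-fold higher in Pico, and the log2 fold change was 4.18 ± 1.0 (SE) in V4 and 4.15 ± 0.52 in TruSeq (adjusted p = 3.23e-06, 0.0219 and 0.000278, limma-voom). The V4 call was lost with edgeR (adjusted p = 0.0538). Of 12 neutrophil markers, Cxcr2 among them, 8 of the 8 listed in Pico, 7 of 10 in V4 and 8 of 11 in TruSeq were higher, and none was lower. Their summed level was 43.2 to 60.4 CPM after IL-1β and 0.971 to 5.14 after saline in Pico, 43.9 to 87.6 against 2.15 to 5.41 in V4, and 48.4 to 94.8 against 3.36 to 6.40 in TruSeq. S100a8, a neutrophil calcium-binding protein, had 145, 312 and 186 counts against 13, 6 and 6 in TruSeq, and Retnlg had 58, 81 and 61 against 3, 1 and 0. The granule genes Ngp and Camp were at 0 in all saline TruSeq libraries, as was Ly6g, while Mpo was in no table. Retnlg, Mmp8, Ngp, Ltf and Cxcr2 were at 0 in all saline Pico libraries, and Mmp8, Camp and Ngp in those of V4. Such genes were listed only through their IL-1β counts and could only be higher, so the numbers of markers called higher lean that way. The part of these markers in the rise of Cxcr2 was not tested. I9582 had the highest Cxcr2 count in TruSeq and V4 and I9579 in Pico (29 against 28 counts), while Cxcl5 was highest in I9579 in each kit.

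No other receptor was called higher by limma-voom with library totals. Ackr1, a decoy receptor that binds and internalises chemokines and is named here, like Ackr3, after its values were seen, had 24 to 61 counts after IL-1β against 5 to 16 in V4 and 14 to 29 against 3 to 13 in TruSeq. The groups did not overlap in either kit (log2 2.23 ± 0.71 SE and 1.39 ± 0.52, adjusted p = 0.0711 and 0.0641, limma-voom). It was called higher in TruSeq with TMM scaling, and in both kits with edgeR and DESeq2, while in Pico it had 0 to 4 against 0 to 5 counts. Ackr3, a scavenger receptor of Cxcl12, had 18 to 41 counts against 6 to 14 in V4 and was called there by DESeq2 alone (adjusted p = 0.0475). Cxcr3, the receptor of Cxcl9, Cxcl10 and Cxcl11 on activated T and NK cells, is also named after its values were seen. It was lower in V4, with 0 in the 3 IL-1β libraries against 12, 21 and 4 counts, at least 4.11-fold lower by the floor (adjusted p = 0.00551, limma-voom), and in TruSeq, with 0, 2 and 2 against 4, 7 and 5 counts (log2 -1.92 ± 0.64 SE, adjusted p = 0.0433). The TruSeq call was lost with TMM scaling, edgeR and DESeq2 (adjusted p = 0.0613, 0.113 and 0.225), and in Pico it had 0 in the IL-1β libraries against 2, 5 and 0. Of 10 lymphocyte markers, 3 were lower in TruSeq and none was called in the other kits, with a summed level of 1.69 to 2.75 CPM after IL-1β against 4.67 to 6.24 after saline in TruSeq, 1.08 to 4.73 against 3.56 to 7.37 in V4 and 2.72 to 5.94 against 2.90 to 6.12 in Pico. Cd8a was at 0 in the saline libraries of V4, and Cd3d in those of Pico. Their part in the values of Cxcr3 was not tested. The receptors had a median log2 fold change of 0.45 in TruSeq, 0.05 in V4 and 0.09 in Pico. With those at or under the floor left out and bounds in place of fitted values, it was 0.45 over 6 receptors in TruSeq, 1.82 over 5 in V4 and 1.33 over 3 in Pico. Each of the 3 kept in Pico had a mean above the floor only after IL-1β. A median above 0 was thus set by the floor there and shows no direction.

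Of 5 other CXC chemokines, 1 was higher in Pico and in TruSeq and none in V4. The 2 listed in Pico were at 0 in all its saline libraries and could only be higher there. Cxcl15 was in no table. Cxcl3 was listed only in TruSeq, with 1, 1 and 0 counts after IL-1β and 0 after saline, and Cxcl17 only in V4 and TruSeq, with at most 2 counts in a library.

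Of 7 genes that cut or present chemokines, 3 were higher in Pico and TruSeq and none in V4, and 1, 1 and 2 were lower in Pico, V4 and TruSeq. Dpp4, a dipeptidyl peptidase that trims the N-terminus of Cxcl9, Cxcl10, Cxcl11 and Cxcl12, fell in all 3 kits. Its counts were 802, 844 and 639 after IL-1β against 1660, 1645 and 1635 in TruSeq (log2 -1.08 ± 0.12 SE, adjusted p = 0.000119, limma-voom), 356, 365 and 285 against 513, 584 and 629 in Pico (log2 -0.76 ± 0.14), and 418, 439 and 296 against 871, 843 and 591 in V4 (log2 -0.99 ± 0.24). No library overlapped, and the V4 call was lost with TMM scaling (adjusted p = 0.0619). The 7 genes had a median log2 fold change of 0.22 in TruSeq, -0.15 in V4 and -0.01 in Pico.

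Of 12 genes of NF-κB and mRNA decay, 8 were higher in TruSeq, 5 in V4 and 7 in Pico, and none was lower, with a median log2 fold change of 1.09, 1.09 and 1.02. Nfkb2, a subunit of NF-κB, had 587, 465 and 281 counts against 48, 61 and 57 in TruSeq (log2 2.98 ± 0.32 SE), and log2 fold changes of 3.95 ± 0.54 in Pico and 3.96 ± 0.48 in V4. Its IL-1β libraries were in the order I9579, I9582, I9583 in each kit, as for Cxcl9. Rela, the p65 subunit, rose by log2 1.17 ± 0.15, 1.10 ± 0.16 and 1.14 ± 0.10 in Pico, V4 and TruSeq, and Bcl3, a nuclear IκB protein, by 1.80 ± 0.19, 1.89 ± 0.25 and 2.0 ± 0.17. The genes of 2 proteins that destabilise cytokine mRNAs rose as well. Zfp36, which encodes tristetraprolin, rose by log2 0.77 ± 0.18, 1.07 ± 0.21 and 1.14 ± 0.12. Zc3h12a, which encodes the ribonuclease Regnase-1, had 364, 270 and 238 counts against 45, 32 and 52 in TruSeq and rose by 2.25 ± 0.37, 4.90 ± 0.85 and 2.79 ± 0.25.

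The interferon arm did not move one way. Of 14 genes, 12 were listed in Pico and 13 in V4 and TruSeq. Of these, 5 were higher in TruSeq, 1 in V4 and 4 in Pico, and 1 was lower in each kit. Their median log2 fold change was 0.20, -0.01 and 0.32. Ifng was not in the Pico table and had 6 counts in 1 saline V4 library, 3 in 1 saline TruSeq library and 0 in all IL-1β libraries, and Ifnb1 was in no table. Gbp2, an interferon-inducible GTPase, had 1019, 1370 and 651 counts against 63, 91 and 65 in TruSeq and rose by log2 3.78 ± 0.32 (SE) there, 4.61 ± 0.49 in V4 and 3.11 ± 0.35 in Pico. Irf1, an interferon-inducible transcription factor, was the gene that fell, with 216, 142 and 143 counts against 577, 539 and 401 in TruSeq. Its log2 fold change was -1.56 ± 0.20 (SE) in TruSeq, -1.43 ± 0.41 in V4 and -1.61 ± 0.26 in Pico (adjusted p = 0.000307, 0.0467 and 0.000376, limma-voom), and the V4 call was lost with TMM scaling (adjusted p = 0.0942). Cxcl9 and Gbp2 were thus called higher in all 3 kits, while Irf1 was called lower in all 3 and Cxcl11 in Pico and TruSeq. How these changes relate was not tested.

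**Figure D4:**
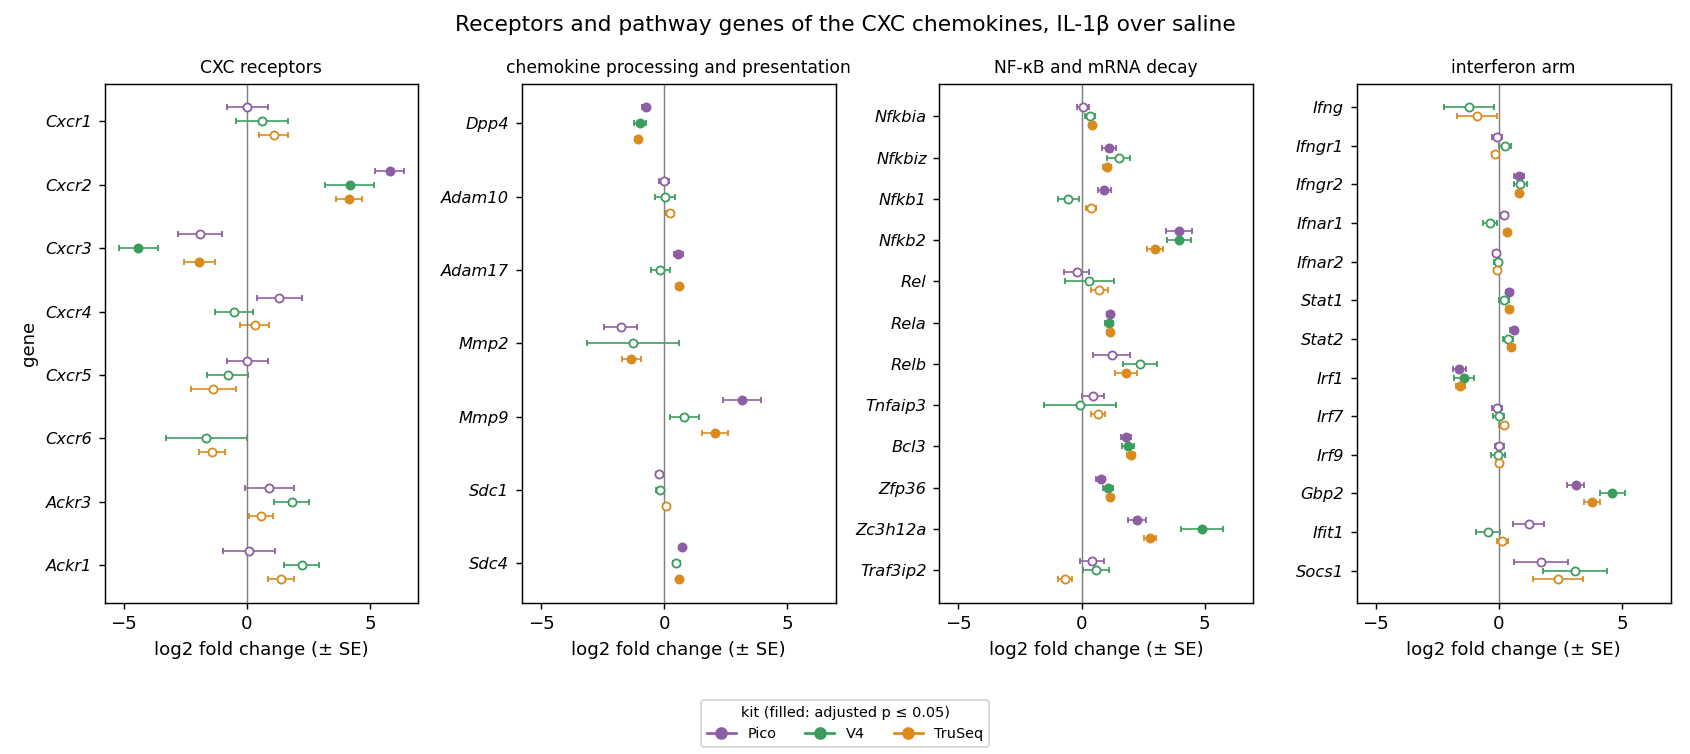
Log2 fold change of IL-1β over saline, with bars of 1 SE, for CXC receptors, chemokine processing genes, NF-κB and mRNA decay genes and interferon genes in each kit, filled where the adjusted p was at most 0.05. Cxcr2, Nfkb2, Zc3h12a and Gbp2 are filled to the right of 0 in all 3 kits, and Irf1 and Dpp4 to the left.

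The tissue was checked against its markers. All 8 hepatocyte markers were present in each table, with a summed level between 40980 and 112400 CPM. Of these, 4 were called lower in TruSeq, 3 in V4 and 6 in Pico, and 1, 1 and 2 were called higher. Alb, Serpina1a and Cps1 were lower in all 3 kits, and Tat, an enzyme of tyrosine breakdown, was higher in all 3. The Alb call in V4 was lost with edgeR (adjusted p = 0.134) and DESeq2 (adjusted p = 0.0674), and those of Serpina1a in V4 and Pico also with TMM scaling. With TMM scaling, 4 hepatocyte markers were lower in TruSeq, 2 in V4 and 3 in Pico, and the numbers called higher stayed the same. Of 9 Kupffer cell and macrophage markers, 6 were lower and 1 higher in TruSeq, 2 lower in V4 and 4 lower in Pico, with a summed level of 120 to 169 CPM after IL-1β against 218 to 288 after saline in Pico, 54.2 to 86.2 against 104 to 204 in V4 and 75.6 to 107 against 152 to 251 in TruSeq. Clec4f, a lectin of Kupffer cells, had 274, 368 and 325 counts against 919, 726 and 602 in TruSeq. With TMM scaling, 3 of the 9 markers were lower in Pico and 1 in V4, where the Clec4f call was lost (adjusted p = 0.0878, limma-voom). Macrophages are a known source of Cxcl9, and the part of this list in the values of Cxcl9 was not tested. Of 6 cholangiocyte markers, 1 was higher in Pico, and 3 were higher and 1 lower in TruSeq. With TMM scaling, 2 of these markers were higher in Pico and 3 in TruSeq, and none was lower. Their summed level overlapped between treatments in each kit.

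For each member called in all 3 kits, the gene with the most similar pattern was taken over the 18 libraries, by Pearson correlation of log2 CPM (0.5 added) centred within each kit, among the 8960 genes that averaged 20 counts or more in each kit. It was Tacc2 for Cxcl9 (r = 0.998), with log2 fold changes of 3.66, 3.51 and 3.75 in Pico, V4 and TruSeq. For Cxcl5 it was S100a10 (r = 0.985), with 1.72, 1.57 and 1.78. For Cxcl12 it was Trip4 (r = 0.98), with -1.02, -1.24 and -1.02. The 18 points share 6 mice and the difference between treatments, so these values are a description.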

How the data were processed

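Liver RNA of 6 mice was measured by RNA-Seq with 3 kits, 18 libraries in all. Per the paper's methods, the authors aligned the reads to mm9 with GSNAP and used PORT to normalize by resampling reads and to count reads per gene. The deposited values are whole read counts, 1 table per kit, with nearly equal library totals within a kit. The depth is the total of counts per library given above, and any interval covers counting error only, since PCR duplicates carry no molecular identifier. Coordinates are those of the mm9 annotation. Samples were grouped by kit and treatment.

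Each kit was fitted with limma-voom (limma 3.58.1, R 4.3.3), scaled to library totals, for genes not at 0 throughout the kit, with Benjamini-Hochberg adjustment, and pairs of kits with an interaction term. The alternatives were TMM factors, edgeR's quasi-likelihood test (4.0.16), DESeq2 (1.42.0), at least 10 counts in 3 libraries, 1 fit of 18 libraries, thinning to 4024632 counts (median of 5 draws), leaving out each mouse, cutoffs of 0.1 and 0.01, and the mouse as a replicate block. The fits were tested on simulated data. Summaries used Python 3.11.15.

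The members and lists were chosen with earlier results of these data known. All members are named. Of the lists, genes called in all 3 kits or absent from a table could be named, and not all of these are, while other named genes are marked or overlap a member. Same-numbered libraries come from the same mouse. Over 8960 genes, their deviations from the group means correlated by 0.157 to 0.439 (V4 and TruSeq), 0.190 to 0.437 (Pico and TruSeq) and 0.0718 to 0.225 (Pico and V4). Those of different mice correlated by less than 0. Deviations of 3 mice sum to 0, so the values below 0 follow on average from those above 0 and are no separate evidence. No library was a copy of another (lowest chi-square per degree of freedom within a group, 7.04). Intronic, antisense and ribosomal reads were not analysed here. The level of 1 marker gene is not reported here.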

Additional observations from a re-analysis of the deposited data

How the results depend on the processing

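The calls of Cxcl5, Cxcl9 and Cxcl12 held in all 3 kits under each of the 12 alternatives run, with log2 fold changes of 5.23 to 5.96 for Cxcl9 and -2.37 to -1.37 for Cxcl12 over the kits. Of 350 fold changes of members recomputed under an alternative, 325 kept their direction and their side of the cutoff. Those that lost or gained a call were Cxcl11 in Pico and Cxcl16 in TruSeq, as given above, and Cxcl1 in Pico with edgeR, Cxcl13 in V4 in 1 fit of 18 libraries (log2 2.02) and Cxcl16 in V4 with DESeq2 (0.83) and in 1 fit (0.66), and thinning also ended the TruSeq call of Cxcl16 (0.52). 1 fit of 18 libraries called 4 members higher in V4 rather than 2, and leaving out a mouse left 1 to 2 members lower in Pico. The fit of 18 libraries has no mouse term and treats the libraries of 1 mouse as independent. The calls it added thus rest on no more mice. The sign turned for members that were not called. These were Cxcl10 in Pico with edgeR (0.44) and DESeq2 (0.44) and from -1.26 to 0.94 without a mouse, Cxcl14 in TruSeq with TMM (0.15), edgeR (0.12), DESeq2 (0.12) and thinning (0.41) and from -0.25 to 0.16 without a mouse, Cxcl14 in V4 with thinning (-0.048) and in Pico from -0.61 to 0.18 without a mouse, and Cxcl11 in V4 from -2.39 to 0.16 without a mouse. The cause was not tested.

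No alternative, the mouse as a replicate block included, called a member in the comparison of kits, and the block changed no call of a member. With the replicate block, 1 gene of all tested was called between Pico and TruSeq and 0 in the other pairs, and the difference for Cxcl9 between Pico and V4 was 0.012 rather than -0.016. Other differences that turned sign were Cxcl11 between Pico and TruSeq with edgeR (0.36) and DESeq2 (0.39), Cxcl12 between Pico and TruSeq (-0.060 to 0.032 without a mouse), Cxcl16 between V4 and TruSeq (-0.11 to 0.13) and Cxcl9 between Pico and V4 (-0.24 to 0.26). Without U9576, 39 genes of all tested were called between Pico and V4 and 57 between V4 and TruSeq, and no member was among them. At equal depth each member kept its place in the order of levels, except in saline V4 libraries, where 8 of 10 did. A member at 3 counts or fewer in a library is at the limit of detection here, as Cxcl2 was in most libraries, and 2 fold changes had no adjusted p in DESeq2.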

Other observations

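The level of a member in CPM, counts scaled to the library total, differed between kits, beside the difference between treatments. Each kit has its own table and library totals, and kit, input, read length and time of sequencing cannot be told apart, so these values are a description. Over the 6 mice, the log2 ratio of Pico to TruSeq was -0.77 ± 0.26 (SD) for Cxcl9, -0.40 ± 0.07 for Cxcl12, 0.03 ± 0.23 for Cxcl1 and 0.83 ± 0.24 for Cxcl16, against a median of 0.04 for the 9569 genes that averaged 20 counts or more in each of the kits compared. For V4 to TruSeq it was -1.15 ± 0.30 for Cxcl9, -1.12 ± 0.38 for Cxcl12, 0.29 ± 0.32 for Cxcl1, 0.38 ± 0.19 for Cxcl16 and 0.59 ± 0.65 for Cxcl10, against a median of -0.31 over 10266 genes. Cxcl9 and Cxcl12 thus gave fewer counts at equal totals in both low-input kits than in TruSeq, and Cxcl16 more, in 6 of 6 mice each. Many other genes did so too. For Pico to TruSeq, 9.13% of genes were at or below Cxcl9, 24.2% at or below Cxcl12 and 85.7% at or below Cxcl16. For V4 to TruSeq these shares were 27.0%, 27.6% and 72.0%, and V4 reads of Cxcl16 can include reads of Zmynd15.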
